A study of Mus musculus with 24 samples.

Results

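The dorsal telencephalon of 3 mouse embryos without a functional *Cep135* gene was compared with that of 3 control embryos at E11.5, in midgestation. The libraries were chosen by their labelled age, tissue and genotype, and they are 6 of the 24 libraries of the series. The mutants were *Cep135*(Δ8/Δ8) embryos, labelled *Cep135* (-/-), which carry a small CRISPR deletion with a frameshift in the second exon on both chromosomes. The controls were *Cep135*(+/+) embryos, and no embryo received a drug. Each library came from 1 embryo. The allele is constitutive, so every tissue of a mutant embryo lacked the gene, and a change that began in the cortex cannot be told apart from one that reached it from elsewhere in the embryo. The embryos are called mutants 1, 2 and 3 and controls 1, 2 and 3 here. In the sample titles, the embryo names of mutant 1 and control 1 share a prefix and those of the other 4 embryos share another. The sample descriptions and column headers instead give mutants 2 and 3 a prefix of their own, which controls 2 and 3 do not share. The labels do not say what the prefix means or which version is right, and the prefix of the titles is used here. The question was which transcripts differ in the early cortex when CEP135 is missing, at an age when it consists mostly of dividing progenitors.

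CEP135 is a coiled-coil protein of the centriole, the barrel at the core of each centrosome, and loss of the human gene is a known cause of primary microcephaly. Cells that lose centrioles or spend too long in mitosis can stabilize the transcription factor p53, which then switches on genes of cell cycle arrest and cell death. In the early cortex, radial glia divide at the ventricle and give rise to intermediate progenitors and neurons, while the medial edge forms the cortical hem, which signals to the cortex and borders the choroid plexus.

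The p53 target *Cdkn1a* encodes the cyclin-dependent kinase inhibitor p21, and *Ccng1* encodes cyclin G1, which recruits a phosphatase to the p53 regulator MDM2. Their sequences upstream of the annotated gene starts are shown because both hold a p53 response element close to a start and both genes were among the most clearly higher in the mutants. Of the 2 windows around RefSeq starts of *Cdkn1a*, 1 holds the element. The sequences are those of RefSeq on GRCm38.p6, 5′ to 3′ along the strand of the gene, with the element in capitals. *Cdkn1a* lies on the plus strand (chr17:29090729-29090975) and *Ccng1* on the minus strand (chr11:40755312-40755536).
Cdkn1a: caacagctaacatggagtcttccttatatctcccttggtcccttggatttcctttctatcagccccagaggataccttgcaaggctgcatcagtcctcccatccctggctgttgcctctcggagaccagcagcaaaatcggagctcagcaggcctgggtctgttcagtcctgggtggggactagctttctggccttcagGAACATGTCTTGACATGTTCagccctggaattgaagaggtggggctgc
Ccng1: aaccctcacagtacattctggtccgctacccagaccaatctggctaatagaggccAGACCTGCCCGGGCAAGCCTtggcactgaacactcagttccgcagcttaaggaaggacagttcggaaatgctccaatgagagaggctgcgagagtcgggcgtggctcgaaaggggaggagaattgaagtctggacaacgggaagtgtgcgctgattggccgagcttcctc

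The element was searched as the canonical p53 response element, 2 abutting half-sites of 10 bases. The central C and G of each half-site had to match, and at most 1 mismatch in all was allowed among the other bases. The search covered windows of 300 bases around RefSeq gene starts, on both strands. The element was found in 22 of 32851 windows (0.067%). Of the 40 tested genes in the p53 target list below, 32 had a window and 4 held the element. The other two were *Rps27l*, a ribosomal protein paralogue, and *Gtse1*, a microtubule-associated protein of G2 that restrains p53. Each of these held it in 1 of 2 windows. Their elements lie inside the annotated genes and are shown alone, both on the plus strand. That of *Rps27l* (chr9:66946296-66946315) ends 97 bases before a RefSeq start of the gene. That of *Gtse1* (chr15:85859945-85859964) lies just after its annotated start.
Rps27l: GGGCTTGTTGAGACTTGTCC
Gtse1: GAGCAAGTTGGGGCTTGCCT
A match is a description of these letters and not of binding. *Gtse1* had 51.0, 23.4 and 35.3 normalized read counts in the mutants against 63.5, 51.0 and 37.3 in the controls, so the groups of this element-bearing gene overlapped. The windows of *Tmem98*, *Calcoco1*, *Eda2r*, *Sesn2*, *Phlda3*, *Bbc3* and *Zfp365* did not hold these letters.

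Between 6378724 and 11642271 reads per library fell on genes, and the median was 10184903 for the mutants, against 7924288 for the controls. Values are normalized read counts, the reads of a gene divided by 1 size factor per library, and the 13406 genes whose mean reached 10 were tested with limma, a linear model that shares the estimate of spread across genes. Log2 fold changes are mutant minus control with their standard error (SE). An adjusted p is corrected over all genes tested and is called under 0.05, while an unadjusted p under 0.05 is used below only to count and order genes. Of all normalized read counts, 12.3% to 16.7% fell on the RNA gene *Gm42418*, which holds ribosomal RNA sequence, for mutant libraries, and 6.11% to 12.8% for control libraries. Mitochondrial genes took 4.69% to 5.70%. By *Xist* and Y-linked transcripts, 2 mutants (1 and 3) and 1 control (2) were female. The dorsal telencephalic markers *Emx1* and *Emx2* ranged from 117 to 179 and from 473 to 817, so each library carried the labelled tissue. Ventral markers such as *Dlx1* (341 to 717) and collagen transcripts of mesenchyme such as *Col1a2* (545 to 2627) were also present in all 6.

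*Cep135* itself (ENSMUSG00000036403, chr5:76588698-76646466, plus strand) gave 246, 336 and 329 normalized read counts in mutants 1, 2 and 3. Controls 1, 2 and 3 had 293, 375 and 318. The groups overlapped, with a log2 fold change of -0.12 (SE 0.156, exact permutation p = 0.7, two-sided). Reads of these libraries come from the 3′ ends of transcripts, far from the deleted bases in the second exon, so this level is no check of the deletion. The transcript was still present in the mutants, with mutant 1 below all 3 controls and mutants 2 and 3 within their range. The nearest tested genes, *Exoc1* upstream and *A730089K16Rik* downstream, overlapped between the groups as well. Within 10 Mb on either side of *Cep135*, 57 genes were tested, and 6 had an unadjusted p under 0.05 (10.5%, against 7.39% of all genes tested). Of these, 5 were lower in the mutants, among them *Epha5* at a distance of 7.62 Mb, and 0 passed the adjusted threshold.

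With adjustment over all genes, 2 of 13406 genes changed (0.0149%), and both rose in the mutants. *Tmem98* (chr11:80810175-80822033, plus strand) encodes a membrane protein that binds the transcription factor MYRF. Its levels were 755, 1248 and 826 in the mutants against 320, 297 and 281 in the controls. The lowest mutant was thus above all 3 controls, with a 3.07-fold difference (log2 fold change 1.62, SE 0.175, limma adjusted p = 0.0352). *Calcoco1* (chr15:102706777-102722178, minus strand) encodes a receptor for the autophagy of endoplasmic reticulum and Golgi membranes that was first described as a transcriptional coactivator. It was at 533, 713 and 555 in the mutants and at 280, 190 and 207 in the controls. The groups stood apart by a fold of 2.67 (log2 fold change 1.42, SE 0.171, limma adjusted p = 0.0479). Mutant 2 had the highest level of both genes. Of the nearest tested genes, *Myo1d* and *Asic2* beside *Tmem98* had log2 fold changes of 0.46 (SE 0.503) and 0.29 (SE 0.429), and *Atp5g2* and *Smug1* beside *Calcoco1* of -0.13 (SE 0.148) and -0.19 (SE 0.165). The values of each of these neighbours overlapped between the groups. *Tmem98* kept its adjusted p under 0.05 in 13 of 19 other fits and *Calcoco1* in 9 of 19. Without control 2 it was 0.173 for both genes, and without mutant 3 it was 0.254 and 0.394, while the log2 fold changes stayed at 1.61 and 1.30 and at 1.70 and 1.47. *Calcoco1* also lost the call without mutant 1 (0.112) and without control 3 (0.0589). Among the fits with all 6 libraries, 3 kinds called neither gene: quantile normalization, a term for the *Gm42418* share, and the embryo-name prefix as a block. *Calcoco1* also lost the call with a mean of at least 50 and with median-of-ratios scaling.

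*Cdkn1a* (chr17:29090976-29100727, plus strand) was at 494, 554 and 466 in the mutants and at 256, 159 and 281 in the controls. All 3 mutants were above all 3 controls. The log2 fold change was 1.16 (SE 0.196, 95% interval 0.72 to 1.59), a 2.23-fold difference. It did not pass the adjusted threshold (limma adjusted p = 0.197). Its exact permutation p was 0.1 (two-sided), the smallest that 3 embryos against 3 allow. With a term for sex the adjusted p was 0.0223, and with all 24 libraries in one limma fit it was 0.0438. *Eda2r* (chrX:97333840-97377216, minus strand), a receptor of ectodysplasin and a p53 target, was at 28.4, 35.7 and 31.0 in the mutants against 4.03, 3.35 and 4.66 in the controls. This was the widest separation among the leading genes, 6.53-fold (log2 fold change 2.71, SE 0.367, limma adjusted p = 0.0912), at levels that rest on few reads in the controls. The gene is X-linked, and the highest value was that of the male mutant 2.

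The 12 genes with the smallest p whose mutant values all exceeded the control values were *Tmem98*, *Calcoco1*, *Eda2r*, *Gm26917*, *Ccng1*, *Cdkn1a*, *Sulf1*, *Ezr*, *Lipa*, *Map3k20*, *Rspo2* and *Sesn2*. Their log2 fold changes ran from 0.49 to 2.71 and their limma adjusted p from 0.0352 to 0.334, so all but *Tmem98* and *Calcoco1* were short of the threshold. *Gm26917*, a non-coding RNA beside *Gm42418* on chromosome 17, was at 1242, 2092 and 2397 against 669, 426 and 719. It also holds ribosomal RNA sequence, its reads may be shared with near-identical copies, and like the *Gm42418* share given above it was highest in mutant 3 and lowest in control 2. With a term for that share, 0 genes had a limma adjusted p under 0.05 and 706 an unadjusted one. *Ccng1* (chr11:40748552-40755311, minus strand) was at 224, 250 and 252 in the mutants and at 122, 97.8 and 146 in the controls (log2 fold change 1.0, SE 0.166). *Sesn2*, whose product sestrin 2 restrains the growth kinase mTORC1, was at 85.8, 129 and 86.5 against 33.3, 48.5 and 52.1 (1.15, SE 0.24). The folds of these 3 genes were 3.12, 2.0 and 2.22.

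The others differed by less. *Sulf1*, an enzyme that trims heparan sulfate outside the cell, had 530, 455 and 486 normalized read counts in the mutants against 287, 339 and 249 in the controls. *Ezr* encodes ezrin, which ties the apical membrane to actin, and was at 1774, 1934 and 1735 against 1306, 1285 and 1276. It had the smallest fold of the 12 (1.41), with controls close to one another. *Lipa*, the lysosomal acid lipase, was at 197, 212 and 200 against 140, 115 and 122. *Map3k20*, a kinase of the ribotoxic stress response, was at 155, 210 and 170 against 109, 92.8 and 105. *Rspo2*, a secreted enhancer of Wnt signalling, is taken up with the hem genes below.

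**Figure D1:**
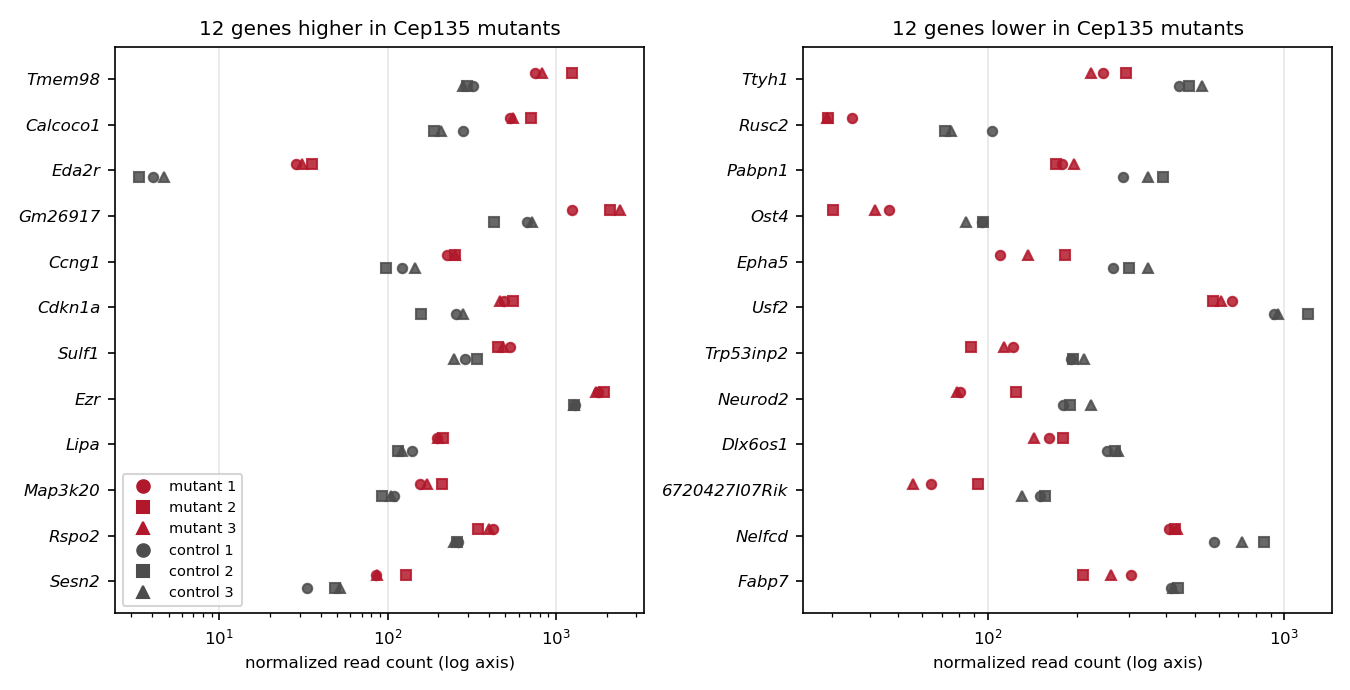
Normalized read count (log axis) of the 12 leading genes in each direction in each embryo, with mutants in red, controls in grey, and 1 symbol per embryo number. Red and grey points do not overlap in any row because non-overlap was part of the choice, and the widest gap is that of *Eda2r* (28.4 to 35.7 against 3.35 to 4.66).

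The corresponding 12 lower genes were *Ttyh1*, *Rusc2*, *Pabpn1*, *Ost4*, *Epha5*, *Usf2*, *Trp53inp2*, *Neurod2*, *Dlx6os1*, *6720427I07Rik*, *Nelfcd* and *Fabp7*, with limma adjusted p from 0.138 to 0.293. None of them passed the threshold. *Ttyh1*, a membrane protein of neural progenitors, was at 245, 293 and 224 in the mutants and at 442, 478 and 529 in the controls (log2 fold change -0.93, SE 0.137). The ephrin receptor *Epha5* was at 110, 183 and 136 against 265, 299 and 348 (-1.11, SE 0.192). *Neurod2*, a bHLH factor of differentiating projection neurons, had 80.6, 125 and 78.6 against 179, 190 and 222 (-1.08, SE 0.197). Mutant 2 was the closest to the controls for all 3 of these genes.

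*Fabp7*, a lipid-binding protein of radial glia, showed another order, with 304, 210 and 260 in the mutants against 416, 439 and 420 in the controls. *Dlx6os1*, a non-coding RNA of the *Dlx5* and *Dlx6* locus in GABAergic cells, was at 161, 180 and 143 against 252, 268 and 274. In such tissue, fewer cells of a type and less RNA per cell cannot be told apart. The rest of the set has general roles: *Pabpn1* (nuclear poly(A) binding), *Nelfcd* (a subunit of the negative elongation factor), *Ost4* (a subunit of the oligosaccharyltransferase), *Usf2* (a bHLH factor) and *Trp53inp2* (an autophagy cofactor). Their log2 fold changes, with those of *Rusc2* and *6720427I07Rik*, lay between -1.40 and -0.72.

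E14.5 cortices of the series came from other embryos, 3 mutants and 3 controls, and shared no sample with the comparison above. One of these mutant cortices is described with both ages in its labels and was taken as E14.5, as its title states. All 12 leading higher genes were also higher in the E14.5 mutants, and 10 of them had an unadjusted limma p under 0.05 there in that direction (4.64% of the genes tested at both ages did). *Tmem98* differed by 1.77 on the log2 scale at E14.5, *Calcoco1* by 1.21, *Eda2r* by 1.86, *Cdkn1a* by 0.83 and *Ccng1* by 0.64. *Ezr* and *Sulf1* were the exceptions, at 0.03 and 0.50. All 12 leading lower genes had a log2 fold change below 0 at E14.5 as well, but *Ttyh1* was at -0.00 and only *Epha5* (-0.60) and *Neurod2* (-0.64) had an unadjusted p under 0.05 (4.54% of genes in that direction). The E11.5 values of these genes thus differed in how far they recurred in the older embryos. A test of the age difference itself, the interaction of age and genotype over 13650 genes, called 0 genes at an adjusted p of 0.05 (0%) and 1070 at an unadjusted one (7.84%).

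Of 50 listed p53 targets, 40 had a mean of at least 10 and were tested. In the mutants 34 were higher (52.9% of all genes were), 13 had an unadjusted limma p under 0.05 in that direction (3.82% of all genes did), and 0 had one in the other. The same number, 13, had mutant values that all exceeded the control values (7.16% of all genes). The median log2 fold change was 0.24, against 0.02 over all genes, and 0 targets passed the adjusted threshold. The summed level of the list was 7468, 7335 and 7231 in the mutants against 6133, 5606 and 5798 in the controls. Of the 13, *Cdkn1a*, *Eda2r*, *Ccng1* and *Sesn2* were also named for these samples by the study, so their place in the count is not independent.

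By role, the arrest genes were led by *Cdkn1a*. The only other arrest gene of 7 with an unadjusted p under 0.05 was *Zfp365*, which protects replication forks, at 47.1, 48.0 and 46.2 against 30.2, 22.6 and 34.2. Among the 5 genes that feed back on p53, *Ccng1* stood apart. *Mdm2*, the ubiquitin ligase that degrades p53 and one of its classical targets, did not: it had 397, 417 and 410 counts against 404, 365 and 377 (log2 fold change 0.10, SE 0.109, 95% interval -0.15 to 0.34).

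Cell death genes gave 6 of the 13, of 13 tested. *Bbc3*, which encodes the BH3-only protein PUMA, was at 179, 119 and 154 in the mutants and at 103, 69.4 and 90.9 in the controls. *Pmaip1*, which encodes NOXA, was at 39.3, 44.6 and 38.2 against 20.2, 25.1 and 21.8. *Phlda3*, a repressor of the survival kinase AKT, was at 33.5, 48.0 and 65.6 against 24.2, 29.3 and 17.9. Each of these genes was higher in all 3 mutants than in any control. *Zmat3*, an RNA-binding protein, shared that pattern at 431, 433 and 398 against 267, 283 and 350. *Perp*, a desmosomal protein of p53-dependent death, did not, since control 2 at 16.7 was above mutant 1 at 12.3 and also above mutant 2.

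*Sesn2* and *Ddit4* were the stress genes with an unadjusted p under 0.05, of 7 tested. *Ddit4*, which encodes the mTORC1 inhibitor REDD1, was at 727, 589 and 713 in the mutants and at 562, 339 and 392 in the controls. None of the 5 DNA repair genes reached that level. Among the remaining targets, *Rps27l* was at 1077, 911 and 1062 against 898, 747 and 811, and *Ptpn14*, a phosphatase that restrains YAP, at 204, 209 and 175 against 144, 136 and 114. Both groups of values stood apart, by folds of 1.24 and 1.49.

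**Figure D2:**
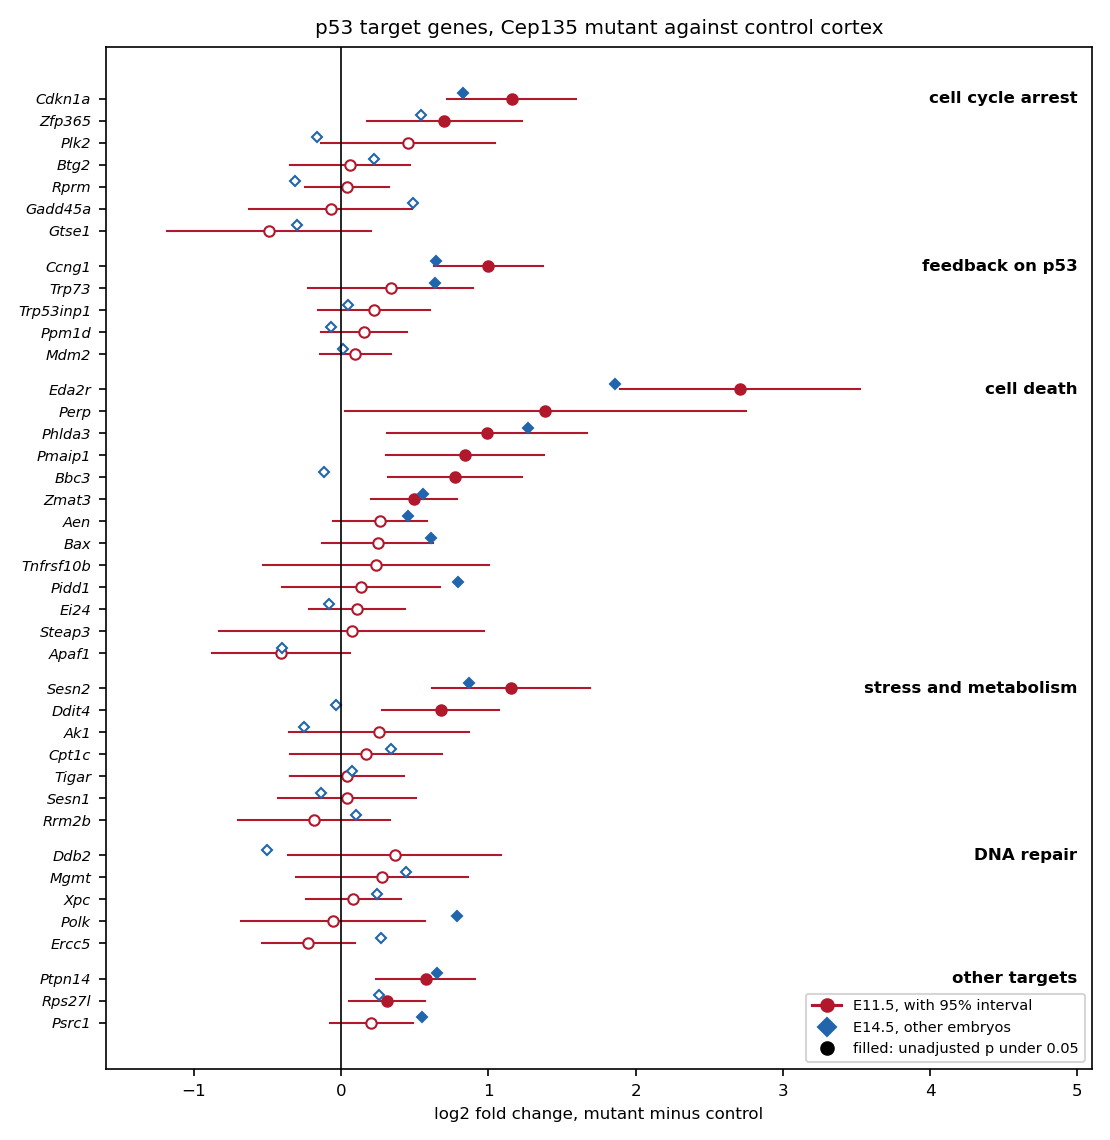
Log2 fold change, mutant minus control, of the 40 tested p53 targets, grouped by role, with 95% intervals at E11.5 (red circles) and the fold change in the E14.5 embryos (blue diamonds, where tested), filled where the unadjusted p was under 0.05. All 13 filled circles lie to the right of 0, from *Rps27l* (0.31) to *Eda2r* (2.71), and *Mdm2* sits near 0 at both ages.

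At E14.5, 36 of these targets were tested and 25 were higher (52% of the genes tested at both ages were). Of the 36, 13 were higher with an unadjusted p under 0.05 (4.64% of genes were) and 0 were lower with one. *Bbc3* (-0.12) and *Ddit4* (-0.04) had no such difference at E14.5, whereas *Phlda3* (1.27) and *Zmat3* (0.56) did. The E11.5 count ran from 10 to 14 genes when single libraries were left out, and 8 of 39 targets were higher with an unadjusted p under 0.05 when mutant 2 alone was set against the controls (207 of all 13411 genes were). In that fit the spread comes from the controls only, and mutant 2 is assumed to vary like them. *Trp53*, the gene of p53 itself, had 152, 129 and 158 counts against 144, 110 and 143 (log2 fold change 0.15, SE 0.163), and its values were looked up after those of the list. Of 12 genes of the mitotic surveillance pathway and other p53 regulators, including *Trp53bp1* and *Usp28*, 0 had an unadjusted p under 0.05. Among 24 genes of the Bcl2 family and caspases, 19 were higher and 5 lower. *Bbc3* and *Pmaip1* were the 2 higher genes with an unadjusted p under 0.05 (3.82% of all genes) and the pore-forming *Bak1* the 1 lower gene with one (3.57%; 112, 118 and 103 against 124, 175 and 141).

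Genes of the centriole and cell cycle showed small differences. Of 38 centriole and centrosome genes, 19 were higher and 19 lower, with a median log2 fold change of 0.01 (-0.01 with quantile normalization). None of them had an unadjusted p under 0.05, against 7.39% of all genes, and the E11.5 counts below lie near or under that share. Of 17 other microcephaly genes, 1 had such a p: *Cdk6*, a kinase of G1 progression, at 539, 617 and 548 in the mutants against 327, 421 and 403 in the controls. Among 40 genes of G2 and mitosis, 31 were higher, by a median of 0.07. Of these, 2 had an unadjusted p under 0.05. *Cdc20*, an activator of the anaphase-promoting complex, was the higher one (1569, 1506 and 1463 against 1301, 1103 and 1056). *Ube2c*, the ubiquitin-conjugating enzyme of the same complex, was the lower one (1201, 1394 and 1481 against 1758, 2159 and 1620). Among 30 S phase genes 24 were higher by a median of 0.14, and the replication licensing factor *Cdc6* (379, 313 and 314 against 240, 269 and 271) was the 1 gene under that p. With single libraries left out, 0 to 5 S phase genes (0 without mutant 1, 5 without mutant 2) and 1 to 6 genes of G2 and mitosis (6 without mutant 2) were higher under that p. Over all genes, 284 of 13417 were so without mutant 1 and 839 of 13396 without mutant 2. In the E14.5 embryos 10 S phase genes and 10 genes of G2 and mitosis were higher at that level (4.64% of all genes), but the interaction of age and genotype called no gene.

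Transcripts of postmitotic neurons were lower in 44 of 45 tested genes, with a median log2 fold change of -0.33. An unadjusted p under 0.05 was found for 13 of them, all lower (3.57% of all genes were), and in 10 of the 45 all mutants were below all controls (6.11% of all genes). *Stmn2*, a microtubule regulator of growing axons, was at 877, 1138 and 949 in the mutants and at 1284, 1309 and 1650 in the controls. *Elavl3*, a neuronal RNA-binding protein, was at 1280, 1564 and 1346 against 1877, 1788 and 2264. *Celf4*, another such protein, was at 397, 538 and 438 against 613, 659 and 746. In each of these genes mutant 2 was the nearest to the controls.

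The adhesion protein *Nfasc* (178, 220 and 231 against 366, 277 and 427) and the glutamate receptor subunit *Gria2* (63.9, 186 and 154 against 217, 220 and 309) were lower by -0.75 and -0.99 on the log2 scale. *Dcx*, the microtubule-binding protein of migrating neurons, was at 943, 983 and 966 against 1197, 1072 and 1304. *Map1b* was also lower on average (7952, 9324 and 7618 against 8640, 16267 and 11353), but mutant 2 exceeded control 1. *Tubb2b*, the most abundant gene of the list, was the 1 gene with a positive value (49207, 50636 and 45218 against 51558, 26838 and 49351). Its sign turned without control 2, whose level was far below the other 5.

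The neuronal difference was uneven between embryos. The mean log2 level of the 45 genes, relative to the 6 libraries, was -0.38, 0.10 and -0.24 for mutants 1, 2 and 3. Controls 1, 2 and 3 were at 0.15, 0.01 and 0.36, so mutant 2 was above control 2. With mutant 2 as the only mutant, 18 of 45 genes were higher and the median was -0.08. Without mutant 2, 28 were lower with an unadjusted p under 0.05, without control 2 the count was 20, without mutant 1 it was 8, and without mutant 3 or control 3 it was 7. The count over all genes, in either direction, moved as well. It was 1542 of 13396 without mutant 2, 945 of 13372 without control 2 and 666 of 13417 without mutant 1. Without mutant 3 it was 645 of 13374, and without control 3 it was 654 of 13411. With a term for sex, 8 genes were higher and 8 were lower with an unadjusted p under 0.05. At E14.5, 32 of the 45 were lower (48% of the genes tested at both ages). Of these, 10 had an unadjusted p under 0.05 (4.54% of genes were lower with one), and 1 of the 45 was higher at that level (4.64%).

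**Figure D3:**
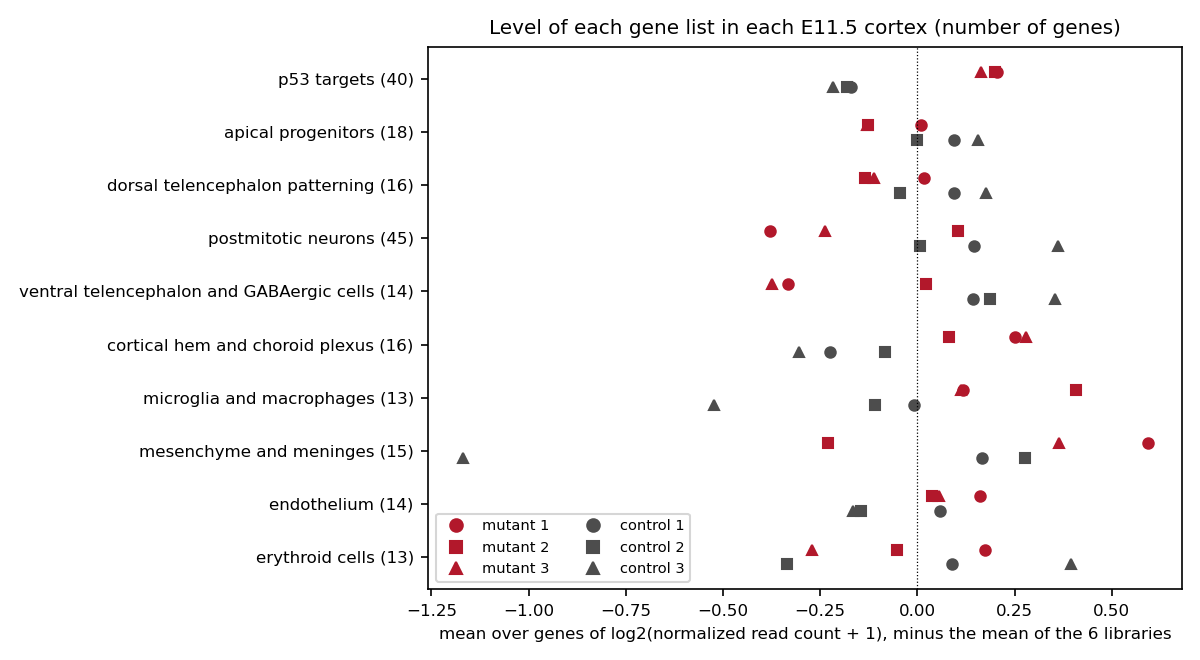
Mean log2 level of the genes of each list in each embryo, relative to the mean of the 6 libraries, with mutants in red and controls in grey. The p53 targets separate by genotype (0.16 to 0.20 in mutants, -0.22 to -0.17 in controls), while for postmitotic neurons mutant 2 (0.10) lies among the controls and for mesenchyme control 3 (-1.17) lies far below the other embryos.

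Genes of the ventral telencephalon and of GABAergic neurons, which arise below the cortex, were all lower in the mutants (14 of 14 tested), with a median of -0.42 and 5 under an unadjusted p of 0.05 (3.57% of all genes were lower with one). The count was 9 without mutant 2 and 3 without mutant 3 or control 3, and the median ran from -0.63 to -0.28 with single libraries left out. Over all genes and in either direction, the count was 1542 of 13396, 645 of 13374 and 654 of 13411 in these 3 fits. With mutant 2 as the only mutant, 3 of the 14 were higher and the median was -0.18. *Gad2*, an enzyme of GABA synthesis, was at 130, 136 and 140 in the mutants and at 192, 237 and 230 in the controls. *Lhx6*, a factor of medial ganglionic eminence interneurons, was at 36.8, 74.7 and 43.3 against 86.7, 108 and 107. *Slc32a1*, the vesicular GABA transporter, was at 44.5, 54.7 and 36.8 against 58.4, 73.6 and 83.9. In these 3 genes no mutant reached a control. *Dlx1* (341, 520 and 357 against 506, 580 and 717) and *Isl1* (148, 249 and 205 against 274, 240 and 327) overlapped through mutant 2. At E14.5 only 5 of the 14 were lower, and *Isl1* was higher there with an unadjusted p under 0.05 (0.34).

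Factors of neuronal commitment were lower in part. Of 7 genes of the NeuroD family and related bHLH factors, 6 were lower, with a median of -0.32. Among them *Neurod2* and *Neurod6* had an unadjusted p under 0.05 (3.57% of all genes were lower with one). *Neurod6* was at 7.10, 24.5 and 31.7 in the mutants and at 29.2, 63.6 and 78.5 in the controls, so the groups overlapped at control 1. *Neurod1* was at 162, 166 and 190 against 215, 171 and 255. In the E14.5 cortices 4 of these 7 genes were lower at that level (4.54% of the genes tested at both ages were), *Neurod6* by -0.87 and *Neurod1* by -0.49. Of 13 genes of intermediate progenitors and the onset of neurogenesis, 9 were lower and 2 were so with such a p (3.57% of all genes). *Eomes*, the T-box factor of intermediate progenitors, was at 441, 558 and 472 against 569, 637 and 770 with no overlap. The Notch ligand *Dll1* was at 118, 167 and 148 against 220, 161 and 232, where mutant 2 exceeded control 2. Of 10 deep-layer and subplate factors 0 had an unadjusted p under 0.05 at E11.5 (7.39% of all genes did). At E14.5, 6 of them were lower with such a p (4.54% of genes were).

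Radial glia and patterning genes were mostly lower, by small amounts. Of 18 apical progenitor genes 17 were lower, by a median of -0.13, and *Fabp7*, *Fgfr3* and *Cdh2* had an unadjusted p under 0.05 (3.57% of all genes were lower with one). The sums of the 18 genes did not overlap, with 24205 to 26965 in the mutants against 27516 to 30018 in the controls. Their mean log2 level did overlap, with mutant 1 at 0.009 and control 2 at -0.001. The fibroblast growth factor receptor *Fgfr3* was at 335, 446 and 366 in the mutants and at 504, 457 and 583 in the controls. *Cdh2*, N-cadherin of the apical junctions, was at 1904, 1949 and 1726 against 1930, 2514 and 2479 and overlapped. Of 16 dorsal patterning genes 11 were lower, with *Lhx2* and *Nr2f1* among the 3 under that p, and 5 had all mutants below all controls (6.11% of all genes). The sums of this list were 15616 to 16338 against 17255 to 20021, while its mean log2 level overlapped, with mutant 1 at 0.017 and control 2 at -0.044. *Lhx2*, a selector of cortical over hem identity, was at 2255, 1611 and 1665 against 2352, 2447 and 2507. *Nr2f1*, a caudal area factor, was at 2336, 3326 and 2913 against 3635, 4110 and 4566. In both of these patterning factors the groups stood apart. At E14.5, 13 of the 18 apical progenitor genes were higher (median 0.13) and 9 of the 16 patterning genes (median 0.07). Of the genes tested at both ages, 52% were higher. With an unadjusted p under 0.05 at E14.5, 1 apical progenitor gene was higher and 1 lower, and 3 patterning genes were lower (4.54% of genes were).

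Genes of the cortical hem and choroid plexus showed the opposite direction. Of 21 listed, 16 were tested and 15 were higher (10 of 10 tested hem genes and 5 of 6 tested choroid plexus genes), with a median of 0.33. An unadjusted p under 0.05 was found for 7, all higher. The 5 untested genes had means under 10, and each overlapped between the groups. Among them the hem ligand *Wnt3a* was nearly absent (2.58, 2.23 and 1.44 in the mutants against 3.02, 2.51 and 1.55 in the controls). Over all genes, 52.9% were higher and 3.82% were so with such a p. *Rspo2* was at 424, 344 and 398 in the mutants and at 261, 258 and 247 in the controls. *Bmp7*, a bone morphogenetic protein, was at 109, 113 and 108 against 65.5, 72.8 and 59.1. *Wnt8b*, a hem Wnt ligand, was at 1703, 1720 and 1423 against 1077, 1407 and 1392. These hem genes did not overlap between the groups, although the lowest mutant and highest control of *Wnt8b* lay close together. *Wnt5a* was at 213, 160 and 369 against 152, 146 and 152. *Otx2*, a homeobox factor of the dorsal midline and choroid plexus, was at 863, 955 and 805 against 681, 649 and 746.

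The choroid plexus genes were less abundant, with *Clic6* at 89.7, 54.7 and 63.5 against 36.3, 28.4 and 39.6. The water channel *Aqp1* was at 65.8, 39.0 and 62.7 against 26.2, 38.5 and 13.2. The defining choroid plexus transcript *Ttr*, transthyretin, had 72.9, 113 and 160 against 66.5, 118 and 128 and overlapped. At E14.5, 14 of the 16 were higher and 5 had an unadjusted p under 0.05, all 5 of the hem, with *Wnt8b* at 0.93 and *Rspo2* at 0.82. With all 24 libraries in one fit, which pools the spread over both ages and the cultures, 1 of the E11.5 genes remained under that p. How much of the medial edge each dissected piece held was not recorded in the labels, and its part in these values was not tested.

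**Figure D4:**
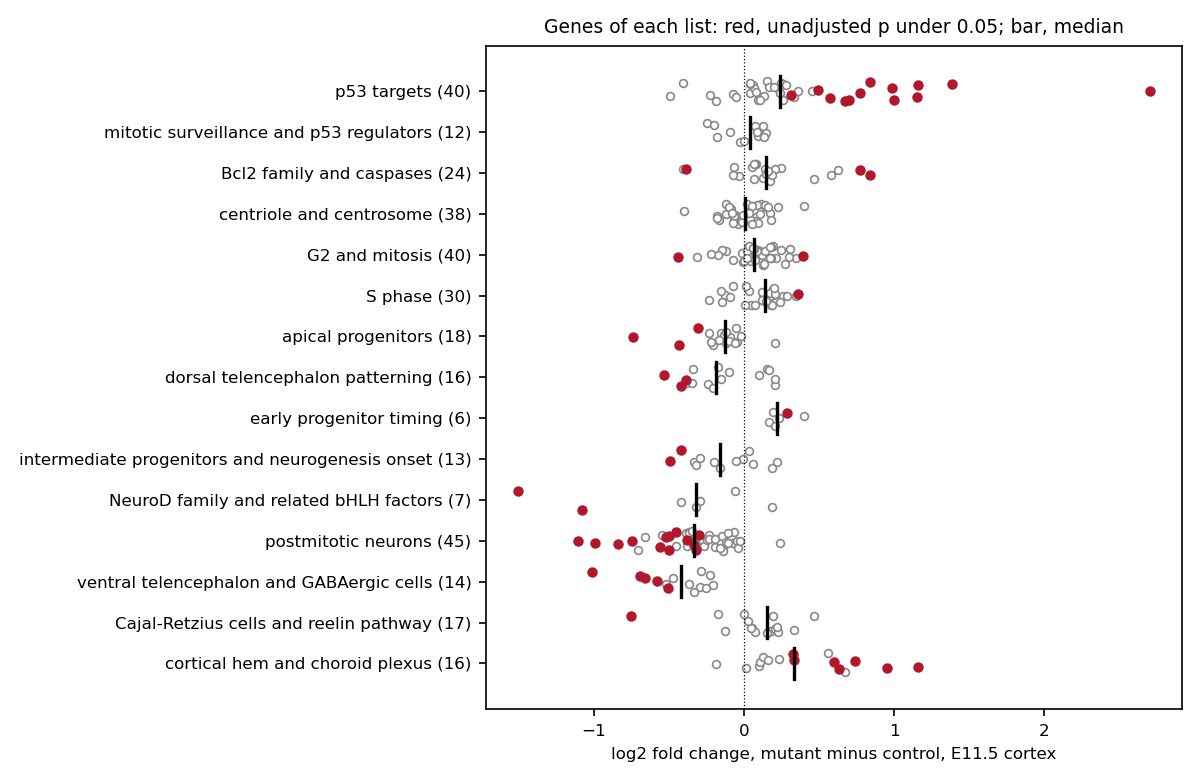
Log2 fold change, mutant minus control, of every tested gene in 15 lists, red where the unadjusted p was under 0.05, with the list median as a bar. The red points of the p53 targets and of the hem and choroid plexus all lie above 0, those of the neuronal and ventral lists all lie below 0, and centriole genes scatter around 0.01.

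Further neural, signalling and stress lists held at most 2 genes each with an unadjusted p under 0.05 (7.39% of all genes had one), and nothing is read from these counts. Of 17 genes of Cajal-Retzius cells and the reelin pathway, 13 were higher by a median of 0.15. The 1 gene with an unadjusted p under 0.05 was the reelin adaptor *Dab1*, which was lower (242, 226 and 185 against 270, 548 and 329). All 6 genes of early progenitor timing were higher, by a median of 0.22, and *Igf2bp3*, an RNA-binding protein of young progenitors, was at 2371, 2029 and 2112 against 1790, 1886 and 1654. *Hmga2*, a chromatin protein that declines with progenitor age, was at 8732, 6565 and 6525 against 6296, 6581 and 6339 and overlapped. Its E14.5 log2 fold change was 0.64. In the Notch pathway *Dll1* and *Hey1* of 17 genes had an unadjusted p under 0.05, both lower, and among 29 hedgehog and cilium genes the receptor *Smo* did (422, 368 and 435 against 487, 495 and 483). Of 8 immediate early genes *Jun* was lower with such a p. In the integrated stress response 7 of 10 were higher, and the p53 targets *Sesn2* and *Ddit4* of the list above had such a p. Of 12 selective autophagy genes *Calcoco1* had such a p and was higher, and *Gabarapl1*, an Atg8 protein, had one and was lower (291, 311 and 287 against 385, 328 and 395).

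Markers of cells that are not of the neural lineage also differed between the groups. Of 15 microglia and macrophage markers 13 were tested, 10 were higher (52.9% of all genes) and 5 had an unadjusted p under 0.05 in that direction (3.82%). The fractalkine receptor *Cx3cr1* was at 234, 207 and 165 in the mutants and at 124, 130 and 111 in the controls. *Pf4*, a chemokine of embryonic macrophages, was at 215, 228 and 219 against 114, 176 and 116. The complement genes *C1qa* and *C1qc* and the receptor subunit *Fcer1g* also stood apart, while the microglial marker *P2ry12* was nearly absent (1.29 to 6.69). The summed list was at 897, 1011 and 814 against 669, 744 and 504. Mutant 1 exceeded control 1 in 8 of the 13 genes, while mutants 2 and 3 on average exceeded controls 2 and 3 in all 13. With all 24 libraries in a single fit, 1 of the 13 was higher with an unadjusted p under 0.05 (192 of all 13406 genes were). At E14.5 all 13 genes were higher (52% of the genes tested at both ages were), 6 with an unadjusted p under 0.05 (4.64%).

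The 14 endothelial markers summed to 2264, 2132 and 2129 in the mutants against 2072, 1931 and 1872 in the controls, with 0 genes under that p. All 15 mesenchymal and meningeal genes were higher by a median of 0.43, again with 0 under that p. Their sums overlapped (9676, 4825 and 8437 against 6930, 8154 and 2623), and without control 3 only 8 of the 15 were higher, with a median of 0.02. Of 5 tested surface ectoderm genes, *Epcam* had an unadjusted p under 0.05 (49.7, 54.7 and 57.7 against 26.2, 49.3 and 31.1). The 13 erythroid genes overlapped, with sums of 72441, 67449 and 55128 against 66005, 51737 and 83287.

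Several of the listed liver and yolk sac transcripts separated 2 mutants from the other embryos. *Alb*, serum albumin, was at 58.1, 0 and 283 in mutants 1, 2 and 3 and listed at 0 in all 3 controls. The apolipoprotein *Apoa1* was at 39.3, 5.58 and 143 against 3.02, 10.04 and 1.55, so mutant 2 was within the controls. Other listed genes differed in this. *Fgb* followed *Alb*, at 3.87, 1.12 and 22.4 against 0 in each control. *Afp* was nearly absent from all 6 embryos (0 to 1.12), and *Apom* overlapped (8.39, 3.35 and 13.7 against 9.07, 9.20 and 10.1). The summed list of 14 genes was at 261, 87 and 953 against 61, 64 and 64. Of the 14, 8 had a mean under 10 and were not tested. All 6 tested genes were higher with an unadjusted p under 0.05 (3.82% of all genes were), but without mutant 3 the count was 0 of 3 tested. Of the 6 genes, 2 were at 0 in every control and passed the filter through the mutants alone. The count is thus not independent of the high values in mutants 1 and 3. At E14.5 the direction was the opposite, with 0 of 6 higher and 5 lower with an unadjusted p under 0.05. Mutants 1 and 3, which carried these transcripts, were also the female mutants and those with the lower neuronal and ventral levels. In mutant 2, which had 0 *Alb*, the values of *Tmem98*, *Calcoco1*, *Eda2r* and *Cdkn1a* were the highest of the 3 mutants. Those of the p53 targets *Bbc3*, *Ddit4* and *Rps27l* were the lowest of the 3. The part of liver transcripts in the other results was not tested.

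**Figure D5:**
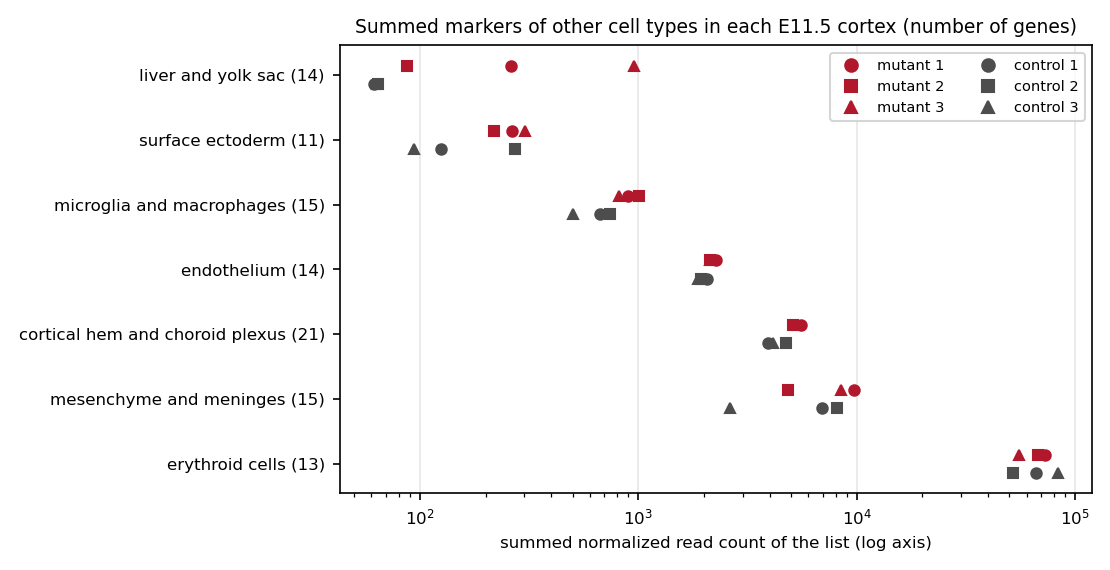
Summed normalized read count (log axis) of marker lists of other cell types in each embryo, with mutants in red and controls in grey. Liver and yolk sac markers are high in mutants 1 and 3 (261 and 953, against 61 to 64 in controls), microglial markers are higher in each mutant than in each control, and erythroid sums overlap.

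The study named 26 genes for E11.5, and here all 26 had an unadjusted p under 0.05, 12 higher and 14 lower, with 1 (*Calcoco1*) past the adjusted threshold. The list was chosen on these samples, so its count and direction are not independent evidence. In the E14.5 embryos, which were not used to choose it, 21 genes had the same sign as at E11.5 and 5 the opposite sign, and 11 had the same sign with an unadjusted p under 0.05. Besides genes given above, the list holds the nuclear adaptor *Ldb1* (138, 145 and 121 in mutants against 257, 185 and 288 in controls). It also holds *Agrn*, the matrix proteoglycan agrin (652, 731 and 699 against 865, 1084 and 1035), and the neurogenic factor *Nfix* (383, 393 and 328 against 439, 580 and 658). *Nfix* was lower at E14.5 too (-0.38, unadjusted limma p of 0.0161), while *Agrn* was at 0.06. The 2 apolipoproteins of the list, *Apoa2* and *Apoc1*, belong to the liver group, of which all 6 tested genes were higher at E11.5 and lower at E14.5.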

How the data were processed

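RNA of E11.5 dorsal telencephalon was sequenced from oligo(dT)-primed, stranded 3′ libraries without molecular identifiers. Per the submitters' notes, reads were checked with FastQC 0.11.7, aligned to GRCm38 with TopHat2 2.0.10 (with SAMtools 0.1.19 and Bowtie 1.0.0) and counted per gene (GENCODE vM20) with HTSeq 0.6.1. The authors deposited 1 table of signal, read counts of 54658 genes divided by 1 size factor per library, with no replicates pooled. Groups came from the labels.

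Mutants and controls were compared with limma 3.58.1 (R 4.3.3, intensity trend, two-sided, Benjamini-Hochberg adjustment) on log2(value + 1), which understates the fold of low genes, for genes whose mean over the 6 libraries was 10 or more. P-values measure the spread between these embryos. The interaction of age and genotype used 12 cortices. In simulated E11.5 counts of 13410 genes, 85 of 98 genes changed 2-fold and 102 of 102 changed 4-fold were recovered, with 8 false calls. The simulation gave every gene the same relative spread between embryos and left out differences in sex, name prefix, *Gm42418* share and dissection. These shares are thus a check of the fit and not the power of this comparison. Named genes were *Cep135*, *Cdkn1a*, genes past the threshold, the 12 non-overlapping genes of smallest p in each direction, from each list the 3 most abundant genes and those with an unadjusted p under 0.05, the study's E11.5 genes, and nearest neighbours. *Gtse1*, *Mdm2*, *Trp53*, the tissue markers and other listed genes outside this rule were singled out after their values were seen, and 2 genes that the rule named are not reported here. The comparison, lists and tests were chosen with earlier results of these data known. Positions came from GENCODE vM21 and promoters from RefSeq (GRCm38.p6). Alternatives were other pseudocounts, filters, scalings and thresholds, all 24 libraries in one fit, terms for sex and *Gm42418*, a block, leaving out libraries, and edgeR 4.0.16 and DESeq2 1.42.0 on whole reads recovered from 5 libraries, in which 100% of values were whole multiples of 1 read within 0.001.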

Additional observations from a re-analysis of the deposited data

How the results depend on the processing

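The number of genes past the adjusted threshold depended on the settings, from the 2 reported to 17 with no filter, 1 with a mean of at least 50, 1 with median-of-ratios scaling over the 6 libraries, 0 with quantile normalization, 8 with all 24 libraries in one fit, 4 with a term for sex and 0 with a term for the *Gm42418* share. It ran from 0 to 8 when 1 library was left out: 0 without control 2 or mutant 3, 2 without mutant 1, 3 without control 1, 4 without control 3 and 8 without mutant 2. The causes were not tested. Pseudocounts of 0.1 and 5 gave 2 each, and an adjusted p under 0.1 gave 3. EdgeR and DESeq2 on all 6 libraries were not run. The whole reads of control 1 were not used, because 1 read there is worth 1.01 normalized counts, too near 1 to tell scaled values from unscaled ones. On the other 5 libraries, a choice made after the data were seen as was the use of mutant 2 alone, edgeR called 2 genes and DESeq2 46. The interaction of age and genotype gave 1 gene with all 24 libraries and 0 or 1 with single libraries left out, the 1 without E14.5 control 3.

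The log2 fold change of *Cep135* turned to 0.042 with the *Gm42418* term and 0.037 with mutant 2 alone, and ran from -0.20 to 0.022 with single libraries left out (0.022 without mutant 1). That of *Trp53* turned to -0.099 and -0.023 in these 2 fits. For *Tubb2b* it turned to -0.20 with the *Gm42418* term and ran from -0.063 (without control 2) to 0.41. *Cdkn1a* passed the threshold with no filter (1.16, adjusted p = 0.00744), all 24 libraries (1.16), a term for sex (1.32) and DESeq2 (1.18, adjusted p = 0.000304), and ran from 0.91 to 1.32 with single libraries left out. Of 1716 values of 92 named genes under the alternatives, 1644 kept direction and side of the threshold, 49 newly passed it, 16 lost it and 7 reversed. Of 569 list medians 23 changed sign, in 9 lists with small medians or uneven libraries. No surface ectoderm gene was left at a mean of at least 50.

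With the embryo-name prefix as a replicate block, *Tmem98* (adjusted p = 0.0584) and *Calcoco1* (adjusted p = 0.0742) lost their calls, 0 genes passed the adjusted threshold and 1279 an unadjusted p of 0.05. Deviations from the group means of embryos with the same prefix had correlations of -0.146 to 0.325 (median 0.154, 5 pairs) and those with different prefixes of -0.245 to 0.034 (median -0.0994, 4 pairs), so the prefix was not taken to pair the embryos. At this depth, genes with a few reads per library, such as *Eda2r* in controls, have wide intervals, and intervals cover the spread between embryos only.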
